A study of Mus musculus with 6 samples.

Results

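The lysosomal hydrolases and membrane proteins described here are 31 named genes: enzymes that break down sugars, lipids and proteins in the lysosome, proteins of its membrane, and the transcription factor Tfeb. They are listed by name, and the rule uses measured values only to pick the probe set of each gene. The list was drawn up with earlier results of these data known, Neu1 among them. Each gene is represented by the probe set of highest mean over all arrays, among the probe sets that the platform annotation gives to that gene only. All 31 genes have at least 1 such probe set, 74 in all, and 30 passed a filter on low values (above log2 4 on at least 3 of 6 arrays). They are 30 of the 10491 genes that passed. Galc, the galactosylceramidase, did not pass: its probe set of highest mean read 2.25, 2.91 and 3.99 in control and 2.25 on each of the 3 deficient arrays, where 2.25 is the lowest value of the arrays.

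Expression was measured in whole colonic tissue of 6 C57BL/6 mice of 6 to 8 weeks, 1 Affymetrix array per mouse, on day 7 of 2.5% dextran sodium sulfate (DSS), a compound in the drinking water that damages the colonic epithelium. The 3 deficient mice were PPAR gamma flfl; Lysozyme M Cre+, so that Pparg, which encodes the lipid-sensing nuclear receptor PPAR gamma, is deleted in cells that use the lysozyme M promoter, mainly macrophages and neutrophils. The 3 control mice were PPAR gamma flfl; Lysozyme M Cre- littermates. Both groups carry the floxed gene and both received DSS. Cre is present in the deficient mice alone, so its effect cannot be told apart from that of receptor loss. Every value is a log2 expression summary, and a difference of 1 on this scale is a factor of 2.

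Lysosomes receive most of their enzymes through the mannose 6-phosphate tag and work at acid pH, which the V-ATPase proton pump maintains. Tfeb and its relatives bind an E-box element in the promoters of many lysosomal genes and raise their transcription when nutrients are short. Macrophages are rich in lysosomes because they digest what they engulf, and every epithelial cell has them too. In whole tissue, fewer cells of a type and less RNA per cell cannot be told apart.

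The arrays did not all show a colon profile. Control replicate 1 and deficient replicate 3 had high values of small intestine genes: Fabp6, the ileal bile acid binding protein, read 15.32 and 14.49 there and 5.72 to 7.81 on the other 4 arrays, and the mean over the 9 measured enterocyte markers of the small intestine was 13.01 and 11.89 against 6.36 to 8.29. The 6 measured colonocyte markers averaged 6.69 and 8.76 on those 2 arrays and 10.73 to 11.84 elsewhere. All 6 samples are labelled colon, and each genotype holds 1 of the 2 arrays. Macrophage markers were higher in the deficient samples for 16 of 18 genes, with a mean level of 8.28 to 8.80 in control and 8.81 to 9.71 in deficient samples. The exceptions, Mertk (-0.77) and Lyz2 (-4.29), are part of these means. Of 12 listed neutrophil markers 5 were measured, and all 5 were higher, with a mean of 4.16 to 5.97 against 6.08 to 9.91. Il1r2, in that mean, read 3.28, 3.51 and 3.64 in control. It passed the filter through the deficient arrays alone, so its direction follows from the filter. The granule genes Elane, Mpo, Ngp and Ltf and the receptors Cxcr2 and Csf3r did not pass the filter. The gene that carries Cre, Lyz2, read 12.32, 11.79 and 12.19 in control and 6.80, 6.24 and 10.39 in deficient samples. Pparg differed by -1.19 with a standard error of 1.73, less than the spread between samples. On the 2 arrays with small intestine genes Pparg read 5.28 (control) and 4.15 (deficient), a difference of -1.13. The other 4 arrays read 9.91 and 9.54 in control and 8.77 and 8.23 in deficient samples, a difference of -1.22. Paneth cell markers averaged 13.68 and 13.46 on the 2 arrays with small intestine genes and 6.12 to 8.62 elsewhere, and general epithelial markers 13.16 to 13.73 on all 6 arrays. B and plasma cell markers (4 of 8 measured) and T cell markers (2 of 7) had median differences of -1.87 and -0.45, but samples of the groups overlapped. The B and plasma cell markers averaged 11.93, 10.35 and 10.55 in control and 10.59, 8.49 and 9.13 in deficient samples. The T cell markers, near the filter, averaged 6.09, 4.48 and 4.59 against 4.63, 4.32 and 4.87. Among the 4 arrays without small intestine genes these medians were -1.07 and -0.06. Between the 2 arrays with small intestine genes they were -3.10 and -1.22. The part of these cell types in the results was not tested.

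The promoters show the element shared by part of the set. RefSeq promoters (GRCm38.p6, 250 bases before to 50 after the start) were found for 28 of the 31 genes and searched for the E-box CACGTG, which reads the same on both strands. It was present for 9 of 28 genes (32.1%) and for 8.09% of the 27025 genes with a promoter in the table. All 9 also held the longer form TCACGTG on 1 strand or the other, which 4.29% of genes hold and which overlaps the E-box by construction. A match is a description of the letters and not evidence of binding. Each line below is the surrounding sequence of the copy nearest to the start, read 5′ to 3′ on the gene's strand and ending at the start at the latest, with every CACGTG in capitals.
Cln3 (chr7:126583335-126583374, minus strand, 121 bases before the start): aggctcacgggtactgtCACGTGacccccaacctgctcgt
Mcoln1 (chr8:3500457-3500496, plus strand, 45 bases before): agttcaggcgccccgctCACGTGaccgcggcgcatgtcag
Lamp1 (chr8:13159129-13159160, plus strand, 15 bases before): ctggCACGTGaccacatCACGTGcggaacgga
Glb1 (chr9:114401013-114401052, plus strand, 48 bases before): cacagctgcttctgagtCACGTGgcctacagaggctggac
Naglu (chr11:101070004-101070043, plus strand, 73 bases before): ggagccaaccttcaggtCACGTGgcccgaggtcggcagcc
Gaa (chr11:119267806-119267845, plus strand, 140 bases before): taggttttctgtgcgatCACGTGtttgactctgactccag
Sgsh (chr11:119355517-119355556, minus strand, 29 bases before): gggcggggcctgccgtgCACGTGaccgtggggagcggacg
Arsa (chr15:89477425-89477457, minus strand, 16 bases before): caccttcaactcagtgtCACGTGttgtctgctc
Gla (chrX:134601177-134601216, minus strand, 194 bases before): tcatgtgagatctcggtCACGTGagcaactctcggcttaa

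Lamp1 has 4 copies in its window of 300 bases, Cln3, Mcoln1 and Gla have 2 each, and the other 5 have 1. The members with the clearest genotype differences, Neu1 and Gusb, have none in these windows. Their 100 bases before the start are shown because the genotype results turn on these genes.
Neu1 (chr17:34931153-34931252, plus strand): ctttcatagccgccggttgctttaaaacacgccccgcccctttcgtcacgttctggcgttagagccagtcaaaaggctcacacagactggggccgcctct
Gusb (chr5:130003050-130003149, minus strand): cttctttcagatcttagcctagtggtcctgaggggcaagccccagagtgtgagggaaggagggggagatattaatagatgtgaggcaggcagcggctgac

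As a set the lysosomal genes differed between deficient and control samples about as much as other genes did, with a median absolute difference of 0.223 beside 0.244 over all genes. Of 30 measured members 15 were higher and 15 lower in the deficient samples, and the median difference was 0.00, beside 0.06 over all genes tested, of which 57.0% were higher. No member passed limma's test at a Benjamini-Hochberg adjusted p under 0.05, and neither did any other gene (0% of 10491); the members' adjusted p ran from 0.659 to 0.998. At an unadjusted p under 0.05 there was 1 member higher, Gusb, where 5.10% of all genes were, and 1 lower, Neu1, where 2.36% of all genes were. Groups did not overlap for 2 members that were higher, Gusb and Galns, and for 3 that were lower, Neu1, Npc1 and Idua. Over all genes these shares were 9.36% and 4.15%. The absolute difference was under 0.5 for 23 members, where 77.5% of all genes were, between 0.5 and 1 for 6, and above 1 for Neu1 alone, where 7.05% of all genes were. For 16 members the 95% interval of the difference lay within 1 log2 unit on either side of 0.

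**Figure D1:**
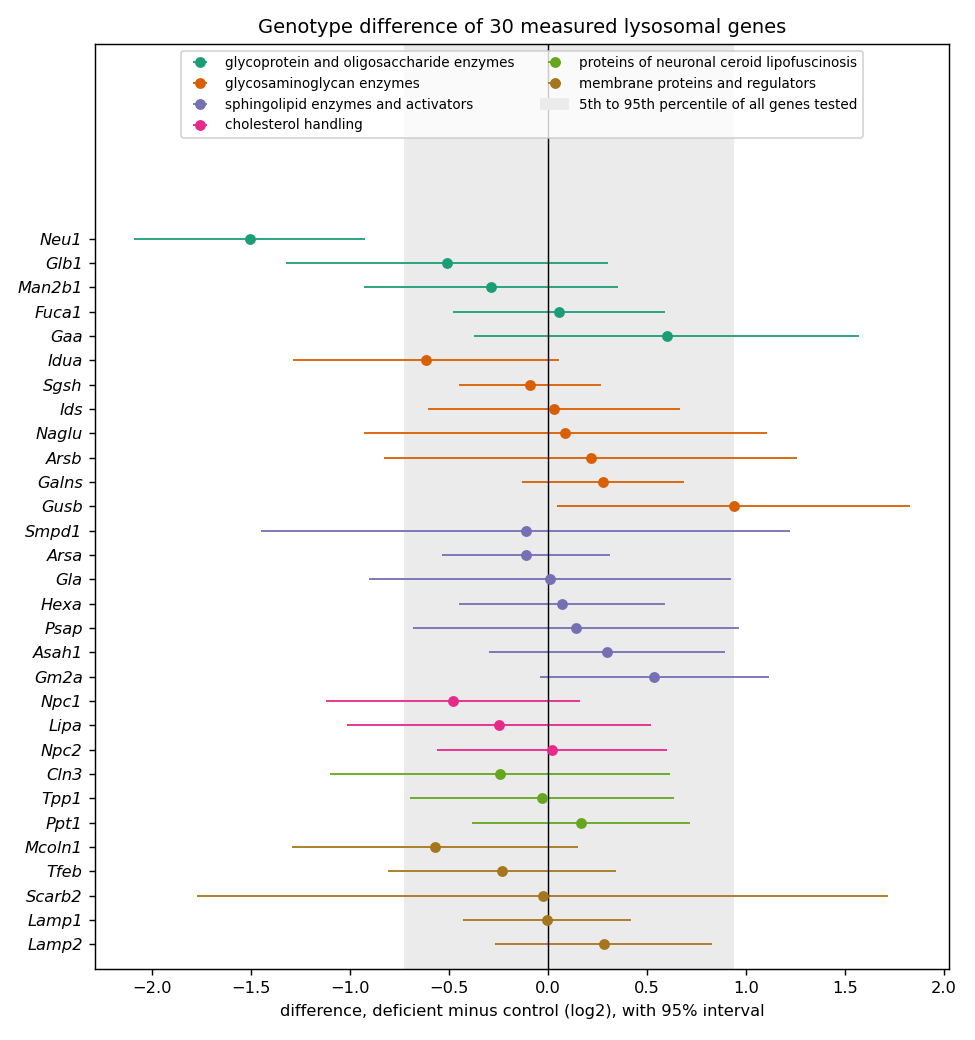
Difference between deficient and control samples (horizontal axis, log2, mean of 3 against 3 arrays) for the 30 measured lysosomal genes, coloured by role; lines are 95% intervals from limma and the grey band is the 5th to 95th percentile of all genes tested (-0.72 to 0.93). Neu1 at -1.51 lies outside the band on the low side, and Gusb at 0.94 lies at its upper edge.

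Neu1 was the member with the largest difference. It encodes the lysosomal sialidase, which removes terminal sialic acid from glycoproteins and glycolipids. It read 10.14, 10.46 and 10.30 in control and 8.86, 8.39 and 9.13 in deficient samples. Every deficient sample lay more than 1 log2 unit below every control sample, and the arrays with small intestine genes lay with their own genotype. The difference was -1.51 with a standard error of 0.24 (95% interval -2.09 to -0.93), 2.85-fold lower. The limma adjusted p was 0.659, and the unadjusted p, 0.000778, was the 11th smallest of 10491. A further probe set (1448481_at), from the same sequence record, read 7.13, 7.48 and 7.45 against 4.95, 4.07 and 5.54, a difference of -2.50. The remaining probe set (1447942_x_at) was below log2 4 on all arrays.

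**Figure D2:**
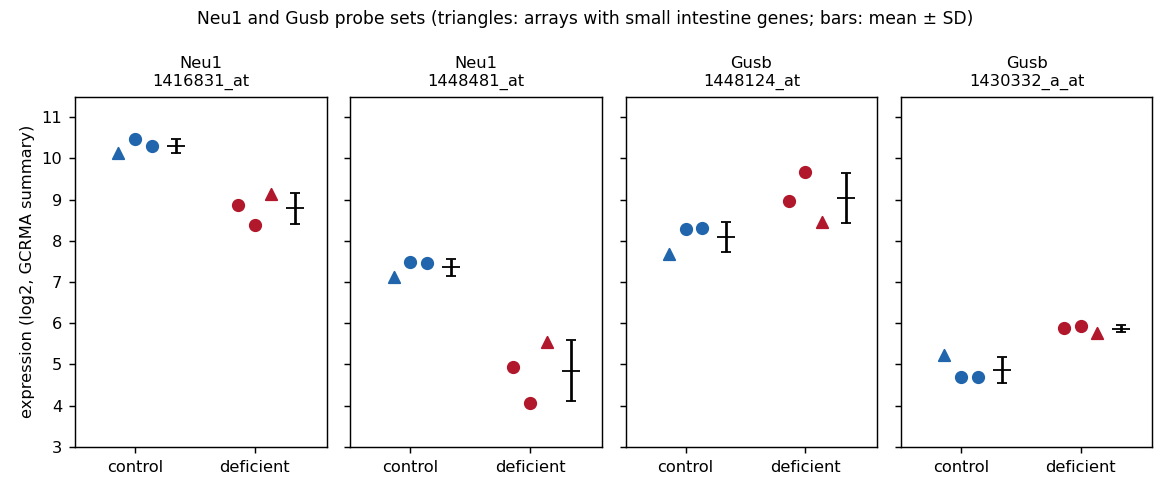
Expression (vertical axis, log2) on the 3 control and 3 deficient arrays for each probe set of Neu1 and Gusb that passed the filter; triangles mark the arrays with small intestine genes and bars the mean ± SD (n = 3). For each of the 4 probe sets the groups do not overlap: both Neu1 probe sets are lower and both Gusb probe sets higher in the deficient samples.

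The partners of Neu1 differed less, and the contrast with Neu1 itself was not tested. Sialidase works in a complex with the beta-galactosidase Glb1 and with Ctsa, the protective protein. Glb1 read 7.99, 8.96 and 8.79 in control and 8.38, 7.66 and 8.16 in deficient samples, with overlapping groups and a difference of -0.51 (95% interval -1.33 to 0.30). Ctsa differed by 0.00 with a standard error of 0.29. Of the other enzymes that trim glycoproteins and glycogen, the alpha-mannosidase Man2b1 differed by -0.29 and the alpha-fucosidase Fuca1 by 0.05. A further Man2b1 probe set (1436781_at) gave 0.02. Fuca1 read 11.56, 11.87 and 12.16 against 11.98, 11.70 and 12.07, with the groups interleaved. Gaa, the acid alpha-glucosidase that breaks down glycogen, read 6.57, 7.08 and 7.27 against 7.85, 8.08 and 6.79, a difference of 0.60 carried by deficient replicates 1 and 2. Its other probe set (1419428_a_at) gave -0.17, so the direction for Gaa depends on the probe set.

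Among enzymes that degrade glycosaminoglycans, the chains of the extracellular matrix, Gusb was higher and Idua lower. Gusb encodes beta-glucuronidase, whose transcript is often used as a reference in quantitative PCR. It read 7.69, 8.28 and 8.32 in control and 8.96, 9.67 and 8.46 in deficient samples. The lowest deficient sample, from an array with small intestine genes, was just above the highest control sample. The difference was 0.94 with a standard error of 0.36, 1.91-fold, and limma gave an adjusted p of 0.667 (unadjusted 0.0423). The unadjusted limma p was above 0.05 without control replicate 1 (difference 0.73), control replicate 2 (1.03), control replicate 3 (1.05), deficient replicate 1 (0.97) or deficient replicate 2 (0.62). The other Gusb probe set (1430332_a_at) read 5.23, 4.69 and 4.69 against 5.89, 5.94 and 5.77, a difference of 1.0.

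Idua, the alpha-L-iduronidase, read 5.77, 6.74 and 6.28 in control and 5.71, 5.52 and 5.71 in deficient samples. All deficient samples were lower, but control replicate 1 exceeded the highest of them by little, and 2 deficient arrays held the same value to within 0.001. The difference was -0.62 (95% interval -1.29 to 0.06; limma adjusted p 0.685). Galns, a sulfatase of keratan and chondroitin sulfate, read 6.75, 6.89 and 6.77 against 7.07, 7.27 and 6.89, and deficient replicate 3 lay above control replicate 2 in the third decimal only. Its difference was 0.28 (95% interval -0.13 to 0.68). The remaining 4 enzymes of the group differed by -0.09 (the sulfamidase Sgsh) to 0.21 (the arylsulfatase Arsb), with the iduronate sulfatase Ids at 0.03 and the glucosaminidase Naglu at 0.09.

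Enzymes and activators of sphingolipid breakdown differed by -0.11 to 0.53. Of 7 measured members 5 were higher, from 0.01 for Gla, the alpha-galactosidase A, to 0.53 for Gm2a, the activator that presents a ganglioside to hexosaminidase. Gm2a read 8.50, 8.51 and 8.82 in control and 9.26, 9.43 and 8.74 in deficient samples, where the array with small intestine genes fell among the controls. The limma adjusted p was 0.685 (unadjusted 0.0642). A further Gm2a probe set (1416188_at) differed by 0.67, with groups that did not overlap. Hexa, the hexosaminidase subunit served by Gm2a, differed by 0.07 (95% interval -0.45 to 0.59). Acid ceramidase (Asah1) differed by 0.30, acid sphingomyelinase (Smpd1) by -0.11 and the arylsulfatase Arsa by -0.11. Psap, the precursor of the saposin activators, read 11.45, 11.70 and 12.02 against 12.12, 12.26 and 11.21. Deficient replicates 1 and 2 were the highest and deficient replicate 3 the lowest, so that the mean difference of 0.14 averages opposite values.

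The genes that release cholesterol from the lysosome differed by -0.48 to 0.02. Npc1, the membrane transporter, read 6.55, 6.45 and 7.10 in control and 6.37, 6.43 and 5.86 in deficient samples. The groups did not overlap, but control replicate 2 (6.45) and deficient replicate 2 (6.43) lay close together. The difference was -0.48 (95% interval -1.12 to 0.16; limma adjusted p 0.714). Npc2, the soluble carrier that hands cholesterol to Npc1, read 11.58, 12.25 and 11.70 against 11.92, 12.02 and 11.64, a difference of 0.02. Lipa, the acid lipase that frees cholesterol from its esters, differed by -0.25. The proteins whose loss causes neuronal ceroid lipofuscinosis differed by -0.24 for Cln3, -0.03 for the peptidase Tpp1 and 0.17 for the palmitoyl thioesterase Ppt1. A further Ppt1 probe set (1422468_at) differed by 0.71.

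Membrane proteins and regulators differed by -0.57 to 0.28. The structural glycoprotein Lamp1 differed by -0.01 with a 95% interval of -0.43 to 0.42, the narrowest bounds among the membrane proteins. Scarb2, which carries glucocerebrosidase to the lysosome, differed by -0.03, with an interval of -1.77 to 1.72 that leaves the size undetermined. The other Scarb2 probe set (1460235_at) gave 0.64, so the direction depends on the probe set. Mcoln1, the calcium channel of the lysosomal membrane, read 7.22, 7.22 and 8.01 in control and 7.22, 6.89 and 6.62 in deficient samples. Its difference was -0.57 (95% interval -1.30 to 0.15), and 2 control arrays held the same value to within 0.001. Tfeb, the transcription factor, read 4.33, 5.09 and 4.54 against 4.49, 4.45 and 4.33. These values are near the filter of log2 4, and the difference of -0.23 had a limma adjusted p of 0.826. For Tfeb, control replicate 1 and deficient replicate 3 held the same value to within 0.001. Its relatives Tfe3 and Mitf differed by 0.15 and 0.18.

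Lamp2, the other main membrane glycoprotein, gave opposite signs by probe set. Its brightest probe set (1434503_s_at) read 11.53, 11.58 and 11.92 in control and 12.10, 12.16 and 11.61 in deficient samples, a difference of 0.28, and 1428094_at differed by 0.36. A further probe set (1416344_at) read 11.49, 11.49 and 11.29 against 11.06, 11.005 and 11.49, a difference of -0.24, and 1416343_a_at gave -0.17. Deficient replicates 1 and 2 were the extreme arrays on all 4 probe sets, highest on 2 and lowest on 2. Which Lamp2 transcript forms each probe set detects is not given in the sources used here.

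**Figure D3:**
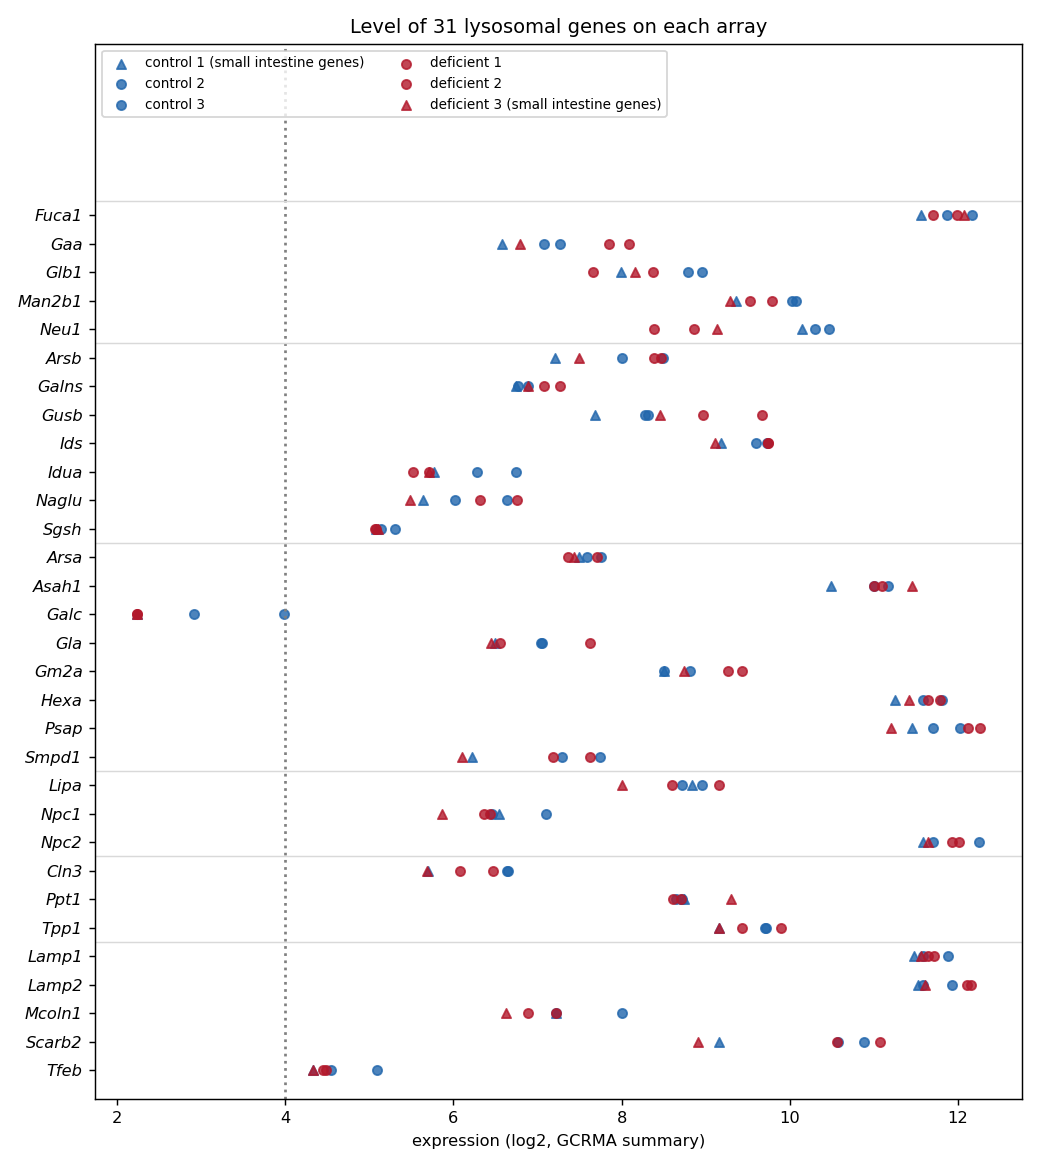
Expression (horizontal axis, log2) of the 31 lysosomal genes on each of the 6 arrays, with genes grouped by role between grey lines; colour gives genotype, triangles mark the arrays with small intestine genes and the dotted line is the filter at log2 4. Levels of different genes come from different probes and are not comparable with each other; within a gene, the triangles lie left of the circles for Scarb2, Smpd1 and Arsb.

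Most of the lysosomal members read lower on the arrays with small intestine genes. On the 2 arrays with small intestine genes 28 of 30 members had a lower mean than on the other 4, with a median difference of -0.38, beside -0.05 over all genes, of which 55.3% were lower. Both arrays lay below all of the other 4 for 15 of 30 members, where 21.0% of all genes did, and above them for 1, Ppt1, where 13.9% did. This split of arrays was read from marker genes, is not a group of the study, and was not tested. Smooth muscle markers were lower there too, with 6 of 6 lower on the 2 arrays (sum of log2 levels 67.7 and 70.5 against 74.9 to 76.1), and so did macrophage markers, with 16 of 18 lower (149 and 159 against 152 to 175). The part of these cells in the lower lysosomal values was not tested.

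Scarb2 differed most between these arrays. It read 9.16 and 8.91 on the 2 arrays with small intestine genes and 10.56 to 11.07 on the other 4, a difference of -1.74. Its other probe set (1460235_at) read 7.88 and 8.69 against 9.39 to 10.35. Smpd1 read 6.23 and 6.11 against 7.19 to 7.74, a difference of -1.29. Arsb read 7.21 and 7.49 against 8.0 to 8.49, a difference of -0.98. All 3 genes were thus set apart by profile in both genotypes.

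Among members with both arrays below the other 4, Gaa, Naglu, Cln3, Psap and Gla followed with differences of -0.89, -0.87, -0.77, -0.70 and -0.59. Naglu, for example, read 5.64 and 5.48 on the 2 arrays and 6.02 to 6.75 on the others, and Cln3 read 5.70 and 5.69 against 6.08 to 6.65. Gla read 6.50 and 6.45 against 6.55 to 7.63, so that its lowest other array was close by. Neu1 was 1 of the 2 members without a lower mean on these arrays, at a difference of 0.13, and Gusb had a difference of -0.73 with overlapping arrays. The 9 members with the E-box had a median difference of -0.41 by profile and -0.09 by genotype, and the 18 measured members without it had -0.41 and 0.02. Their ranges by genotype were -0.57 to 0.60 and -1.51 to 0.94.

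**Figure D4:**
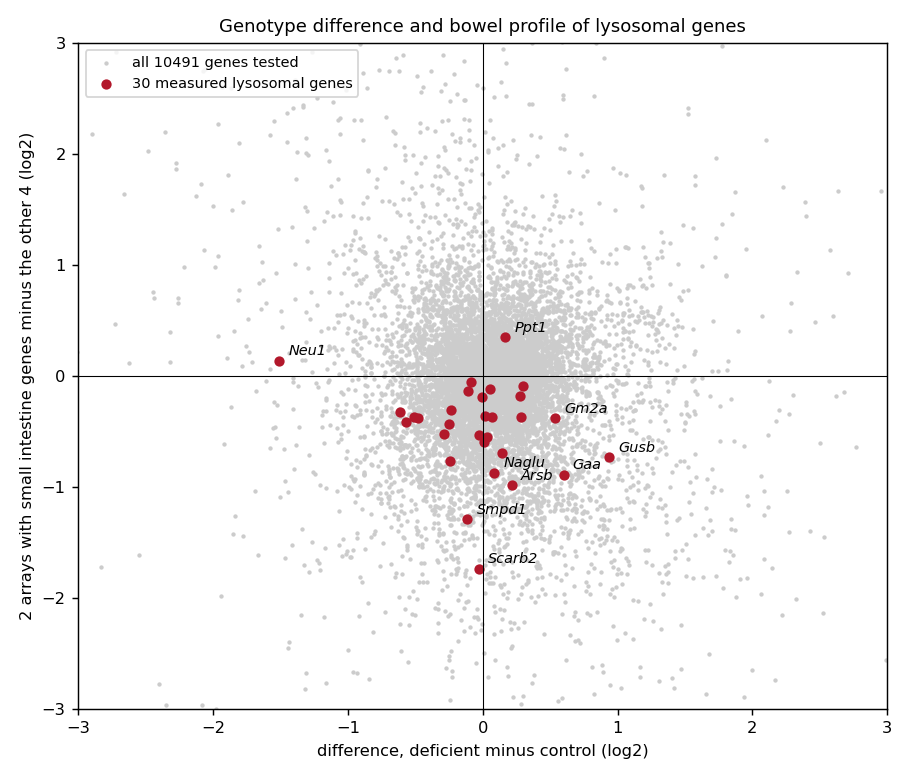
Each point is a gene, with its difference between deficient and control samples on the horizontal axis and the mean of the 2 arrays with small intestine genes minus that of the other 4 on the vertical axis (both log2); red points are the 30 lysosomal genes and grey points all genes tested, of which 206 lie outside the axes. Of the red points 28 lie below the horizontal line, while they spread evenly to both sides of the vertical line.

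Within each bowel profile Neu1 and Gusb necessarily had the same direction as over all arrays, because their groups do not overlap. Only the sizes could differ. Among the 4 arrays without small intestine genes Neu1 differed by -1.76 and Gusb by 1.02, and between the 2 arrays with them by -1.01 and 0.77, with 1 array per genotype and so no replicate check. With the bowel profile as a block, the limma adjusted p was 0.252 for Neu1 and 0.303 for Gusb, and Gaa and Gm2a were also under an unadjusted p of 0.05. These 4 of 30 members stand beside 13.4% of all genes in the same fit. Among the 4 arrays the groups did not overlap for 7 members that were higher and 8 that were lower. Over all genes 30.5% and 18.4% were so separated, which 2 arrays against 2 reach easily.

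Of the 30 members 15 had the same sign in both profiles, 7 higher and 8 lower, and 15 had opposite signs. For Neu1, Gusb, Galns, Npc1 and Idua the shared sign was fixed beforehand, because their groups do not overlap. Npc1 (-0.38 and -0.69) and Mcoln1 (-0.56 and -0.60) were lower in both. Idua differed by -0.90 among the 4 arrays and by -0.06 between the 2, and Glb1 by -0.85 and 0.17. Asah1 differed by -0.03 among the 4 arrays and by 0.96 between the 2, and Lipa by 0.04 and -0.83. A limma interaction of genotype and profile, a test chosen after the data were seen, gave no member an adjusted p under 0.05 (0.936 to 1), with 1 member, Asah1, at an unadjusted p under 0.05, where 5.16% of all genes were.

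**Figure D5:**
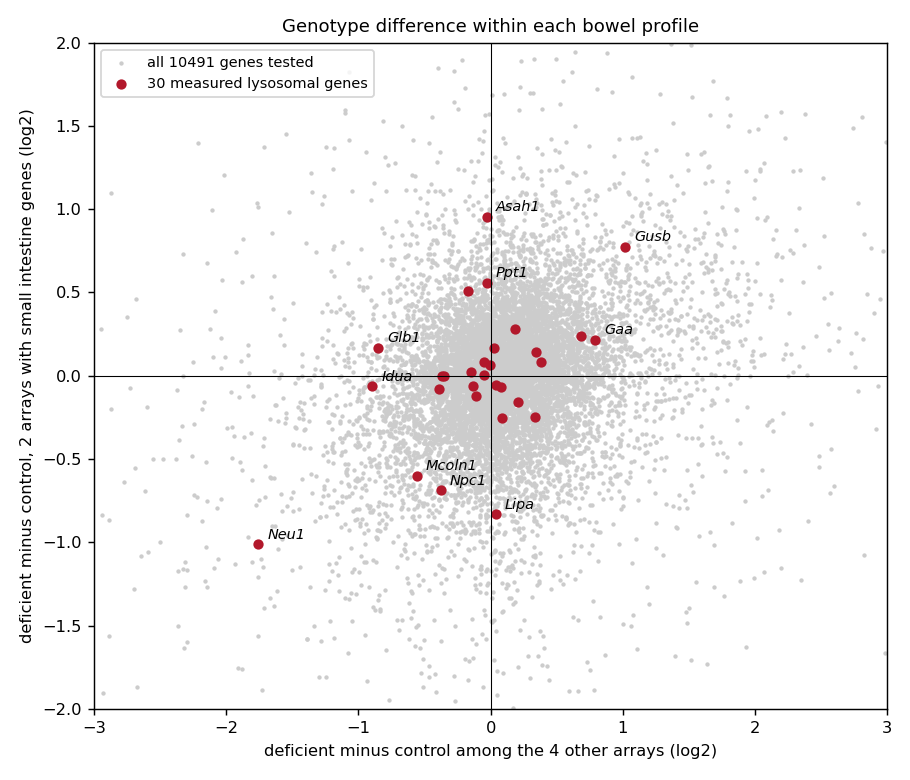
Difference between deficient and control samples among the 4 arrays without small intestine genes (horizontal axis) and between the 2 arrays with them (vertical axis), both log2; red points are the 30 lysosomal genes and grey points all genes tested, of which 181 lie outside the axes. Neu1 is low on both axes and Gusb high on both, which groups that do not overlap require. Asah1 and Lipa lie near 0 on the horizontal axis.

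Other genes of the lysosome lay on both sides of 0 by genotype. Of 14 measured further hydrolases 6 were higher and 8 lower, with a median of -0.03, and 1 was under an unadjusted p of 0.05: Naaa, an acid amidase, at 0.52 (limma adjusted p 0.667). Over all genes 5.10% were higher and 2.36% lower at that unadjusted threshold. Of 13 further membrane proteins 4 were higher and 9 lower, with a median of -0.06. The members with a difference above 1 there were Cd68 (1.21) and Laptm5 (1.07), both proteins of blood cell and macrophage lysosomes, with overlapping groups. V-ATPase subunits were higher for 12 of 16, with a median of 0.14. The largest was Tcirg1, a subunit abundant in osteoclasts and immune cells, at 0.57.

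Genes of mannose 6-phosphate sorting had a median of -0.04 over 16 genes, and the receptors M6pr and Igf2r differed by 0.18 and -0.27. The relatives of Tfeb and the nutrient-sensing genes of the lysosome had a median of 0.09 over 17 genes. None was under an unadjusted p of 0.05, where 5.10% of all genes were higher and 2.36% lower. Autophagy genes were lower for 10 of 15, with a median of -0.16. Wipi2, which acts in autophagosome formation, read 7.24, 7.94 and 7.57 in control and 6.82, 7.10 and 6.75 in deficient samples, a difference of -0.69 (limma adjusted p 0.665). Sqstm1, the cargo receptor p62, read 9.97, 10.24 and 10.30 against 9.68, 9.91 and 9.29, a difference of -0.54 (limma adjusted p 0.667). No gene of these lists passed the test. Groups did not overlap for 4 autophagy genes that were lower, for 2 V-ATPase genes that were higher, for 2 higher and 1 lower sorting genes, and for 1 higher and 1 lower nutrient-sensing genes, beside 9.36% higher and 4.15% lower over all genes. Macrophage markers, by comparison, had a median difference of 0.98 over 18 genes, where the lysosomal members had 0.00. The part of macrophage content in the members' values was not tested. By bowel profile, further hydrolases read lower on the 2 arrays with small intestine genes for 11 of 14 genes (median -0.16). Further membrane proteins did for 7 of 13 (-0.04), V-ATPase subunits for 12 of 16 (-0.08) and sorting genes for 9 of 16 (-0.05). Nutrient-sensing genes did for 14 of 17 (-0.16) and autophagy genes for 9 of 15 (-0.18), where members did for 28 of 30 (-0.38).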

How the data were processed

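The deposited values are log2 summaries that the authors made with GCRMA per the submitters' processing notes. GCRMA subtracts background modelled on probe sequence, so values near the floor are compressed. No version or settings are named. Values span 2.25 to 16.2, a log2 range. Array medians ran from 3.02 to 3.10. With 3 arrays a group, precision rests on that number. The labels call the replicates biological.

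Of 45101 probe sets, 34958 named 1 gene in the platform annotation, 932 several and 9211 none. Probe sets above log2 4 on at least 3 arrays were kept, with the brightest per gene (10491 genes). The test was limma 3.58.1 (R 4.3.3; two-sided, no covariate). P-values were Benjamini-Hochberg adjusted over all genes. On simulated data with 10491 genes, 0%, 59% and 88% of 200 genes changed by 1, 2 and 4 were recovered. False calls among the unchanged genes were 0, 5 and 12.

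The members, the lists and the rule for named genes (no overlap or unadjusted p under 0.05, regulators, highest means, arrays set apart by profile, largest remaining differences) were chosen with earlier results of these data known; Neu1 was among those results. Alternatives covered filters, normalization, probe sets, moderation, a floor, blocks and left-out arrays.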

Additional observations from a re-analysis of the deposited data

How the results depend on the processing

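Over 17 alternative settings Neu1 was lower in each, by -2.01 to -1.31, with an unadjusted p under 0.05 in all 17 and a limma adjusted p of 0.233 to 0.985. Gusb was higher in each, by 0.62 to 1.22, with an unadjusted p under 0.05 in 10. The filters, moderation, floor and blocks left the Neu1 and Gusb differences unchanged. Leaving out arrays could not change their sign, because the groups do not overlap. The number of settings with the same sign is therefore little check on these genes. In all, 14 of 30 members kept 1 sign in all settings that measured them and 16 did not. With 1 value per gene, no gene passed the adjusted threshold in any of these settings; a limma fit over all 17031 kept probe sets called 1, which belongs to no member. The number of members at an unadjusted p under 0.05 was 2 in the reported fit and 1 with no filter. It was 4 with bowel profile as a block and 6 without the 2 arrays of small intestine profile (Neu1, Glb1, Gusb, Gaa, Idua and Gm2a), and 1 to 4 when 1 array was left out. Over all genes that number was 783, 1411 with the profile block, 1461 without those arrays, and 431 to 1191 when 1 array was left out (1191 without control replicate 1, 435 and 482 without control replicates 2 and 3, 431 without deficient replicate 2). Same-numbered samples deviated from their group means with correlations of -0.54, 0.36 and -0.61. The 2 arrays of small intestine profile bear different replicate numbers, so these correlations cannot decide whether the numbers pair the samples. With the replicate number as a block 437 genes and 1 member were under an unadjusted p of 0.05. The median of all genes was 0.06, and 0.00 after quantile normalization or median centring, where 12 members were higher in place of 15. The members' median ran from -0.14 to 0.13 when 1 array was left out. The cause of these changes was not tested. The simulation drew independent noise with each gene's spread within the groups, and that spread includes the difference in bowel profile. At that spread, changes of 1 log2 unit in single genes were not recovered with 3 arrays per group.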

Other observations

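Genes beside Neu1 on its chromosome did not share its difference. Of the 5 nearest measured genes on either side in the reference gene order, chosen after the values were seen, Slc44a4 and Ehmt2 differed by 0.11 and -0.12 on 1 side, and 1110038B12Rik and Hspa1b by -0.09 and 0.19 on the other. The complement genes Cfb and C2 differed by 0.51 and 0.52. Nelfe differed by 0.27 with groups that did not overlap, Hspa1a by 0.99 and Lsm2 by -0.02. The fifth gene on the far side, D17H6S56E-5, differed by 2.68 with overlapping groups (limma adjusted p 0.667). The other sialidase genes Neu2 and Neu3 have probe sets on the array that did not pass the filter.

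The members Gla, Ids and Lamp2 lie on the X chromosome. They differed by 0.01, 0.03 and 0.28.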
